A study of Mus musculus with 16 samples.

Results

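The epithelial identity genes described here are 10 genes named by symbol, Cldn3, Cldn4, Cldn7, Epcam, Cdh1, Krt8, Krt18, Grhl2, Zfp750 and Esrp1, out of 24063 genes in each of 2 deposited tables. All 10 were found in both tables, and the rule that picks them uses names and no measured value, although the list was drawn up with earlier results of these data known. They were followed in AtT-20 cells, a mouse pituitary tumour line that makes the hormone precursor Pomc as corticotropes do, in which the factor Pax7 was expressed. Pax7 is a pioneer transcription factor known for giving intermediate lobe cells of the pituitary their melanotrope identity.

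RNA-seq was run on 16 libraries of total RNA depleted of ribosomal RNA. The Pax7 group (2 libraries) was AtT-20 cells expressing Pax7 with a 3x flag tag, and the Neo group (2 libraries) was AtT-20 cells expressing 3x flag-Neo, both untreated. The ER-Pax7 groups (3 libraries each) were the same line carrying a 3x flag-ER-Pax7 construct, either untreated (0 h) or after 12, 24 or 96 h of 4-hydroxytamoxifen, a ligand that moves such estrogen receptor fusions into the nucleus. All groups were at passages 10 to 20. The labels do not say whether a construct is carried by 1 clone or a pool, and no group had the ligand without ER-Pax7, so the ligand and the activated factor cannot be told apart. Likewise, Pax7 cannot be told apart from other differences between the Pax7 and Neo populations. Whether replicates came from separate cultures is not stated in the labels, and the p-values then reflect the spread among these libraries, which may be technical.

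Epithelial cells are held together by tight junctions, adherens junctions and desmosomes, and carry keratin filaments inside. Claudins such as Cldn3, Cldn4 and Cldn7 form the strands of tight junctions, Epcam is an adhesion protein of epithelial surfaces, and Cdh1 (E-cadherin) is the core of the epithelial adherens junction. Krt8 and Krt18 are the type II and type I keratins that pair in simple epithelia. Grhl2 is a transcription factor known to activate Cdh1 and claudin genes in mouse epithelia, Zfp750 is a zinc finger factor whose human counterpart drives late differentiation of skin keratinocytes, and Esrp1 is an RNA-binding protein that sets epithelial patterns of splicing. Hormone cells of the anterior pituitary descend from oral ectoderm, itself an epithelium.

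The constructs showed in the libraries as labelled. Pax7 read 2.28 and 2.36 FPKM in Pax7 cells, against 0 and 0.01 FPKM in Neo cells. Esr1, whose sequence marks the fusion, was listed at 0 in all 4 of these libraries and averaged between 1120 and 1241 normalised scaled exon reads in the ER-Pax7 groups. Pax7 itself averaged 1724 ± 39.3, 1743 ± 65.5, 1760 ± 104.4 and 1892 ± 27.0 (SD, n = 3 each) at 0, 12, 24 and 96 h. It was called higher at 96 h than at 0 h (log2 0.13 ± 0.04 SE, adjusted p = 0.0132 in limma). Esr1 was not called there (log2 0.13 ± 0.05, adjusted p = 0.0607 in limma). Pomc was among the 4 highest genes of every group, while of 7 markers of stratified epithelium Trp63 and Dsg3 stayed under 0.45 scaled exon reads in every ER-Pax7 library and at 0 in the others, and Krt14 and Krt10 were measurable in both tables, at 10.0 to 26.2 and 25.1 to 33.4 scaled exon reads. Recovered depth was 61.4 to 88.7 M reads in ER-Pax7 libraries, and estimated depth was 44.2 to 54.7 M in Pax7 and Neo libraries. Replicate 2 at 12 h stood apart by its share of the ribosomal gene Rn45s, 2.35% of its total against 0.753% to 1.26% in the other ER-Pax7 libraries.

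The ER-Pax7 table gives reads over exons scaled to a common library total, here divided further by TMM factors (trimmed mean of M values, a correction for library composition). Per kb of exon the 10 genes spanned levels from among the highest in the cell to hardly any reads. In untreated ER-Pax7 cells Krt8 stood highest with 3071 ± 148 normalised scaled exon reads per kb, at rank 122 of 24063 genes. Krt18 followed with 768 ± 37.1, Cldn3 with 441 ± 42.4, Esrp1 with 341 ± 9.55 and Epcam with 192 ± 5.65 per kb (SD, n = 3 each). These 5 genes were abundant in the corticotrope line. Zfp750 came next at 12.1 ± 1.13 and Grhl2 at 7.0 ± 0.46 per kb, then Cldn4 at 1.21 ± 0.21 and Cldn7 at 0.667 ± 0.13 per kb. Cdh1 had 0.03 ± 0.03 per kb and rank 18012. Neighbours in this order did not overlap between libraries at 0 h, whereas at 96 h the libraries of Cldn4 (0.91 ± 0.50 per kb) and Cldn7 (0.615 ± 0.24 per kb) overlapped.

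Cdh1 was close to absent in these cells. Its exons held between 0 and 4 recovered reads in each of the 12 ER-Pax7 libraries, out of 61.4 M or more, and 6 of the 12 held none. In the other table it was listed at 0 FPKM in both Pax7 and both Neo libraries, where rounding to 2 decimals can hide up to 15.7 to 20.7 reads over its gene body of 66878 bases. Cdh1 passed no filter on low values and was not tested in any comparison. Cldn7, which in epithelia is found in complex with Epcam, was also near the floor of detection, with 5 to 13 recovered reads per ER-Pax7 library.

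In mm10 the genes lie at Cldn3 chr5:134986214-134987476, Cldn4 chr5:134945124-134946934, Cldn7 chr11:69965421-69967886, Epcam chr17:87635979-87651127, Cdh1 chr8:106603368-106670246, Krt8 chr15:101996711-102004342, Krt18 chr15:102028216-102032026, Grhl2 chr15:37233036-37363568, Zfp750 chr11:121510976-121519342 and Esrp1 chr4:11331933-11386783. Krt8 and Krt18 are separated by 23.873 kb and Cldn4 and Cldn3 by 39.279 kb. Counting used no strand, so overlapping genes matter: Zfp750 lies wholly inside Tbcd, a tubulin cofactor gene on the opposite strand, and Cldn3 shares 44 bases with the antisense gene Wbscr25. No exon base of Zfp750 is an exon base of Tbcd in GENCODE M21, whereas 169 exon bases of Grhl2 are shared with the antisense gene Gm16136.

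RefSeq promoter windows (GRCm38.p6, 250 bases before to 50 after the gene start) were at hand for 6 of the 10 genes, Cldn3, Cldn4, Cldn7, Epcam, Krt8 and Krt18. The windows of Krt8, Krt18 and Epcam are shown because these genes were lower at 96 h than at 0 h, Epcam already at 24 h. That of Cldn4 is shown because it had the largest rise in Pax7 cells. They are written in the direction of each gene, at chr15:102004293-102004592 (minus strand), chr15:102027966-102028265 (plus), chr17:87635729-87636028 (plus) and chr5:134946885-134947184 (minus). Capitals mark CACCTG (or CAGGTG on the other strand), the E-box read by Snail and Zeb factors, and ACCGGT, the core read by Grainyhead-like factors.
Krt8: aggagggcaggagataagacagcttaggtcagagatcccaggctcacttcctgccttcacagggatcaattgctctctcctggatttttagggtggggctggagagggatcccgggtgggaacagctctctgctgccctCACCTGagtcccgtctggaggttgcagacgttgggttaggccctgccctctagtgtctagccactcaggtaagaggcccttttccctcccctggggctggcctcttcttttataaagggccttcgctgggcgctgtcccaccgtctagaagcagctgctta
Krt18: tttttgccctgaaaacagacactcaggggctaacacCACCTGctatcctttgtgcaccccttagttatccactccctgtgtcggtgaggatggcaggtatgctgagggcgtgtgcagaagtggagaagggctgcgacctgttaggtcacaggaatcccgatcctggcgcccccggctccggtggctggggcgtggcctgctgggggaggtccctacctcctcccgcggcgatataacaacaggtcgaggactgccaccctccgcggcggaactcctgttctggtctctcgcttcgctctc
Epcam: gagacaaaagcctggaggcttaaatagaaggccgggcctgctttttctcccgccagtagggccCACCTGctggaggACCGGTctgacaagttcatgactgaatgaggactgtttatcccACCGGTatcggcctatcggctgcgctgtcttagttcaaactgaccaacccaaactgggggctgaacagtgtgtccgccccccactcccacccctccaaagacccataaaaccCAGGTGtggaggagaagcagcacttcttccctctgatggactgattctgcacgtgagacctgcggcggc
Cldn4: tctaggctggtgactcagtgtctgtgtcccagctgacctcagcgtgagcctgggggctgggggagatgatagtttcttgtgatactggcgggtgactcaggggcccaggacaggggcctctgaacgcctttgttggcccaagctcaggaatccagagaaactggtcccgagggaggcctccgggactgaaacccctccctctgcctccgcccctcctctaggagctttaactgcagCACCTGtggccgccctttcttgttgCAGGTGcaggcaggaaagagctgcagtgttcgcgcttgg

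Krt8 and Krt18 each hold 1 such E-box, at 111 and 214 bases before the gene start. Epcam holds 2 E-boxes and 2 ACCGGT cores, the cores beginning 174 and 131 bases before its start. Cldn4 holds 2 E-boxes, 1 on each side of its start. All 6 genes with a window held at least 1 E-box, Cldn7 in 1 of its 2 windows. Counted by window, 20.2% of the 32851 mouse promoter windows of the same set held this E-box. ACCGGT was found in 2.33% of these windows and among the 6 genes in Epcam alone. The full Grainyhead-like motif AACCGGTT (0.146% of windows, it contains the core) and the paired-type homeodomain dimer, TAAT followed after any 3 bases by ATTA (0.487%), were found in none of the 6, and the paired domain core GTCACG (8.22%, both strands searched) in 1 of 2 windows of Cldn7. These are matches of letters in a 300-base window and show no binding.

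With ligand, Zfp750 rose at 12 h and went on rising to 96 h, Grhl2 fell at 12 h and was lowest at 96 h, and Krt8, Krt18, Epcam and Esrp1 fell by small amounts later. Cldn3, Cldn4 and Cldn7 did not pass the test at any time. Tests were made with limma on log2 values for 15188 genes, all 12 libraries in a single model, with Benjamini-Hochberg adjustment over all genes tested and a threshold of 0.05. Of the 10 genes, 9 passed the filter of 1 scaled exon read in at least 3 libraries, Cldn7 with exactly 3 libraries and the other 8 with all 12.

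Zfp750 read 34.9, 41.8 and 40.5 normalised scaled exon reads at 0 h and 74.5, 84.1 and 73.5 at 12 h. It read 102, 112 and 88.7 at 24 h and 131, 122 and 130 at 96 h. No 2 time points overlapped, and each later one was higher. Its fold change over 0 h was 1.96 at 12 h (log2 0.97 ± 0.09 SE), 2.54 at 24 h (log2 1.35 ± 0.09) and 3.22 at 96 h (log2 1.69 ± 0.09). In limma the adjusted p was 1.79e-07, 6.96e-10 and 5.90e-12 at these times. The level at 96 h also exceeded that at 24 h, by log2 0.34 ± 0.09 (adjusted p = 0.0124 in limma). That last call was lost when 24 h replicate 3 or 96 h replicate 1 was left out, with an adjusted p of up to 0.0747. Tbcd, the gene around it, averaged 1447 ± 23.8, 1446 ± 13.2 and 1392 ± 21.1 scaled exon reads at 12, 24 and 96 h, against 1461 ± 38.2 at 0 h, and was not called at any time.

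**Figure D1:**
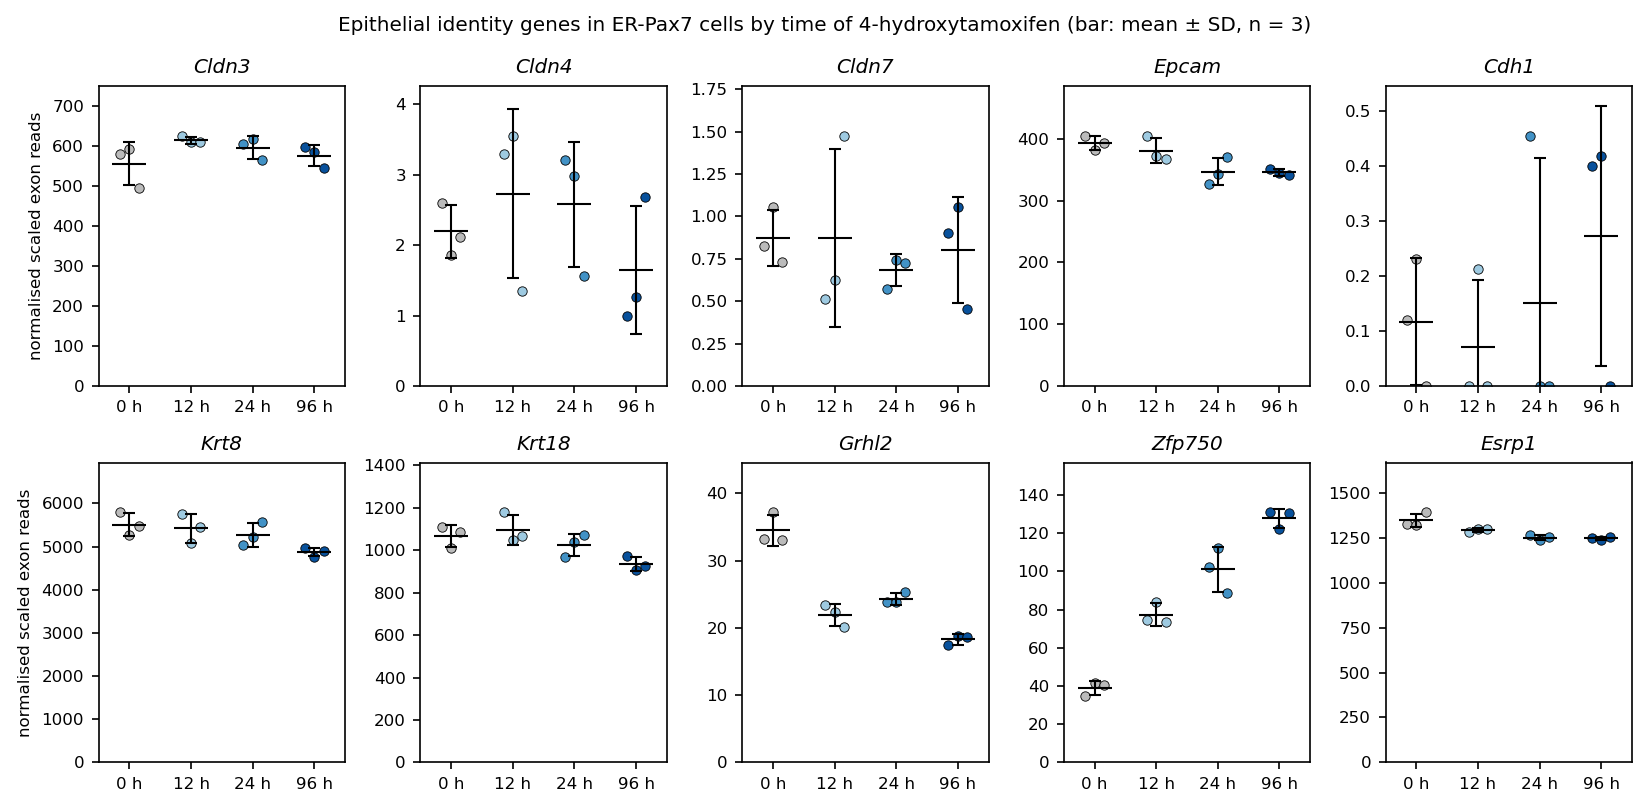
Normalised scaled exon reads (y axis, from 0, a separate scale per gene) of the 10 epithelial identity genes in each ER-Pax7 library at 0, 12, 24 and 96 h of 4-hydroxytamoxifen. Points are libraries and bars are the mean ± SD (n = 3). Zfp750 has a mean of 39.1 at 0 h and 128 at 96 h, Grhl2 one of 34.5 at 0 h and 18.3 at 96 h, while the Cldn3 groups stay between 556 and 615.

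Grhl2 moved the other way. It read 33.3, 37.1 and 33.1 normalised scaled exon reads at 0 h and 23.4, 22.3 and 20.1 at 12 h. It read 23.8, 23.8 and 25.3 at 24 h and 17.4, 18.7 and 18.7 at 96 h. All libraries with ligand were below all untreated ones, and the 24 h libraries stood just above the 12 h ones, a difference that was not tested. The log2 fold change over 0 h was -0.63 ± 0.10 (SE) at 12 h, -0.49 ± 0.10 at 24 h and -0.88 ± 0.10 at 96 h. The adjusted p in limma was 0.000246, 0.00185 and 7.69e-07. Between 24 and 96 h its log2 fold change was -0.39 ± 0.10 (adjusted p = 0.0118 in limma), a call that reached an adjusted p of 0.05003 and was lost without 96 h replicate 1. These values rest on 174 to 405 recovered reads per library.

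At 12 h, 2 of the 9 tested members were called, Zfp750 higher and Grhl2 lower, against 6.53% of all genes tested (992 of 15188; 2.92% higher and 3.61% lower). At 24 h 4 were called, Zfp750 higher and Grhl2, Esrp1 and Epcam lower, against 13.6% of all genes (5.66% higher and 7.92% lower). At 96 h 6 were called, Zfp750 higher and Grhl2, Krt18, Epcam, Krt8 and Esrp1 lower, against 33.8% of all genes (16.5% higher and 17.3% lower). The same 6 were the members whose 96 h and 0 h libraries did not overlap, which held for 45.9% of all genes. Between 96 h and 24 h 2 were called, Zfp750 higher and Grhl2 lower, against 12.6% of all genes (6.03% higher and 6.62% lower), and none of the members was called there without 96 h replicate 1. The median log2 fold change of the 9 members at 96 h was -0.17, against 0.00099 over all genes tested. Zfp750 was the sole member past 2-fold in any ER-Pax7 comparison with 0 h, which 1.59% of all genes passed with a call at 96 h. In the authors' deposited table the same 96 h comparison lists 6 members with an FDR under 0.05, Zfp750, Krt8, Krt18, Grhl2, Epcam and Esrp1, among 2784 genes. In that table Zfp750 was the 1 member so listed at 12 h and at 24 h, with Grhl2 at an edgeR FDR of 0.175 and 0.401. For 96 h against 24 h it lists 0 members among 743 genes, with Zfp750 at an edgeR FDR of 0.0671 and Grhl2 at 0.852.

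The keratin pair was called lower at 96 h, by about the same amount, and was not called at 12 or 24 h. At 24 h both stood at log2 -0.06 ± 0.05 (SE). Between 24 and 96 h Krt8 was at log2 -0.11 ± 0.05 and Krt18 at -0.13 ± 0.05. Neither was called there (adjusted p = 0.128 and 0.0754 in limma), so the time of the fall is not settled. Krt8 read 5791, 5262 and 5475 normalised scaled exon reads at 0 h and 4970, 4770 and 4896 at 96 h. Every 96 h library was below every untreated one, whereas the 12 h (5080 to 5748) and 24 h (5037 to 5579) libraries overlapped them. The log2 fold change of Krt8 at 96 h was -0.17 ± 0.05 (SE, adjusted p = 0.00636 in limma). Krt18 read 1110, 1011 and 1084 at 0 h and 973, 909 and 924 at 96 h, again without overlap. Its log2 fold change at 96 h was -0.19 ± 0.05 (adjusted p = 0.00389 in limma). The ratio of Krt8 to Krt18 per exon length held between 3.76 and 4.11 in all 12 libraries. Across these libraries the log2 levels of the pair had a Pearson r of 0.94, given as a description of 12 libraries that share 4 time points.

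Epcam read 404, 381 and 393 normalised scaled exon reads at 0 h, 327, 343 and 370 at 24 h, and 352, 344 and 342 at 96 h. The 24 h and 96 h libraries were all below the untreated ones and overlapped each other, with a log2 difference of -0.0015 ± 0.049 (SE). The fold change over 0 h was log2 -0.18 ± 0.05 at both times, with an adjusted p in limma of 0.0146 at 24 h and 0.00593 at 96 h. The 24 h call was lost without 0 h replicate 1 or 24 h replicate 1, with an adjusted p of up to 0.1001.

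Esrp1 had the smallest called change. It read 1326, 1323 and 1390 normalised scaled exon reads at 0 h and 1279, 1298 and 1296 at 12 h. It read 1262, 1234 and 1251 at 24 h and 1247, 1238 and 1256 at 96 h. Its replicates were tight, so log2 fold changes of -0.11 ± 0.03 (SE) at 24 h and -0.11 ± 0.03 at 96 h passed the threshold with an adjusted p of 0.026 and 0.0101 in limma. Both calls were lost without 0 h replicate 3, the highest untreated library, with an adjusted p of 0.0606 at 96 h and 0.114 at 24 h. The 24 h call was also lost without 24 h replicate 2 (0.0921), with library totals (0.0604) and with only 0 and 24 h in the model (0.0774).

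The claudins did not pass the test with activation. Cldn3 read 581, 592 and 494 normalised scaled exon reads at 0 h, 625, 611 and 609 at 12 h, 606, 618 and 564 at 24 h, and 597, 585 and 546 at 96 h. The 12 h libraries were above the untreated ones (log2 0.15 ± 0.06 SE, adjusted p = 0.129 in limma), and replicate 3 was the lowest library at 0 h. Without it the log2 difference was 0.07 (adjusted p = 0.532 in limma). Cldn4 held 10 to 34 recovered reads per library and its time points overlapped, with a log2 fold change of -0.31 ± 0.28 at 96 h. Cldn7 changed by log2 -0.06 ± 0.25 at 96 h. That wide error goes with the few reads of Cldn7 given above, so the data do not settle whether it changed.

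Other markers moved beside these changes. The summed level of 5 corticotrope markers, most of it Pomc, was 93679 to 98882 normalised scaled exon reads at 0 h, 83656 to 88815 at 12 h, 77070 to 79273 at 24 h and 92313 to 99398 at 96 h. It was thus lower at 12 and 24 h without overlap with 0 h, and Pomc was called lower at 24 h (log2 -0.32 ± 0.05 SE, adjusted p = 0.000205 in limma). The summed level of 4 pituitary stem cell markers, mainly Sox2 and Sox9, was 91.2 to 97.8 at 0 h, 76.8 to 79.1 at 12 h, 78.7 to 85.4 at 24 h and 97.3 to 101.3 at 96 h. Of 7 markers of stratified epithelium, whose sum was 49.0 to 56.8 at 0 h and 43.4 to 47.2 at 96 h, Krt14 averaged 21.5 ± 4.24 at 0 h and 11.8 ± 2.01 at 96 h (SD, n = 3 each), while Krt10 read 27.2 to 32.4 at 0 h and 29.4 to 33.4 at 96 h. The part of these markers in the results was not tested. In RNA from whole cultures, fewer cells expressing a gene and less RNA per cell cannot be told apart.

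The genes whose log2 levels over the 12 ER-Pax7 libraries were most like those of a called member were listed without a test, among 15179 other genes. Zfp750 was followed most closely by Wipf3 and Heg1, both with a Pearson r of 0.99. Grhl2 was followed by Nmrk1 (0.98) and Tmem63c (0.96), Krt8 by Commd1 (0.97) and Arl6ip5 (0.96), and Krt18 by Adipor1 (0.97) and Ankrd37 (0.96). Epcam was followed by Tubb4b and 1810037I17Rik (both 0.95) and Esrp1 by Tnfrsf1a (0.95) and Prrt2 (0.94). Among the members, Zfp750 ran against Grhl2 (r of -0.90) and Esrp1 (-0.89). The 12 libraries fall into 4 time points, so any gene that steps at the same times scores high.

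Cells that expressed Pax7 without the receptor fusion were set against Neo cells. Compared with Neo cells, Pax7 cells had more RNA of Cldn4, Zfp750, Cldn3 and Krt8 and less of Krt18 and Esrp1, while Epcam did not pass the test. This table holds FPKM over whole gene bodies, introns included, and was normalised separately, so its levels are not set against those of the ER-Pax7 table. Of the 10 genes 7 passed the filter of 0.1 FPKM in at least 2 libraries, and 6 of these were called in limma, 4 higher and 2 lower. Among all 13393 genes tested 36.6% were called, 18.1% higher and 18.5% lower. The libraries of all 7 tested members did not overlap between groups, which held for 73.8% of all genes, and Cldn4 and Zfp750 were called past 2-fold, as were 2.16% of all genes. Scaled by library totals alone, without TMM factors, all genes split into 2599 higher and 1241 lower, against 2424 higher and 2482 lower, and Esrp1 lost its call (adjusted p = 0.357). Without any 1 of the 4 libraries 4 or 5 members were called, among 1957 to 2730 genes in all.

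Cldn4 showed the largest change of the 10 genes. It read 0.612 and 0.645 FPKM in Pax7 cells, against 0.0707 and 0.136 FPKM in Neo cells, an estimated 54.4 and 63.7 reads against 7.85 and 13.7 reads. The libraries did not overlap, and the log2 fold change was 1.86 ± 0.17 (SE, adjusted p = 0.00614 in limma) on the scale of FPKM plus a pseudocount of 0.1. On so low a gene the size depends on the pseudocount, with log2 2.56 at a pseudocount 10 times smaller and 0.91 at one 5 times larger, and the call held at both. It passed the filter through both Pax7 libraries and 1 Neo library. Under ligand no rise of Cldn4 was called at 12, 24 or 96 h.

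Cldn3 read 70.4 and 72.9 FPKM in Pax7 cells, against 53.5 and 53.6 FPKM in Neo cells. That was a rise of log2 0.42 ± 0.03 (SE, adjusted p = 0.00456 in limma). Wbscr25, which overlaps its last bases, rose by log2 0.24 ± 0.05 (adjusted p = 0.0304 in limma) from a far lower level of 0.375 FPKM in Pax7 cells and 0.303 FPKM in Neo cells. Cldn7 read 0.0478 and 0.0794 FPKM in Pax7 cells, against 0.0707 and 0.0626 FPKM in Neo cells, overlapped between groups and was not tested.

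Zfp750 read 1.13 and 1.19 FPKM in Pax7 cells, against 0.525 and 0.491 FPKM in Neo cells. The rise was 2.07-fold (log2 1.05 ± 0.05 SE, adjusted p = 0.00258 in limma), and it was called with every alternative run. In the run with a filter 10 times stricter, Zfp750 passed that filter through the Pax7 libraries alone. It was the sole member called higher both here and at 96 h of ligand. Tbcd averaged 1.24 ± 0.01 FPKM in Pax7 cells and 1.24 ± 0.03 FPKM in Neo cells (SD, n = 2 each), a log2 difference of -0.0012 ± 0.038 (SE).

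**Figure D2:**
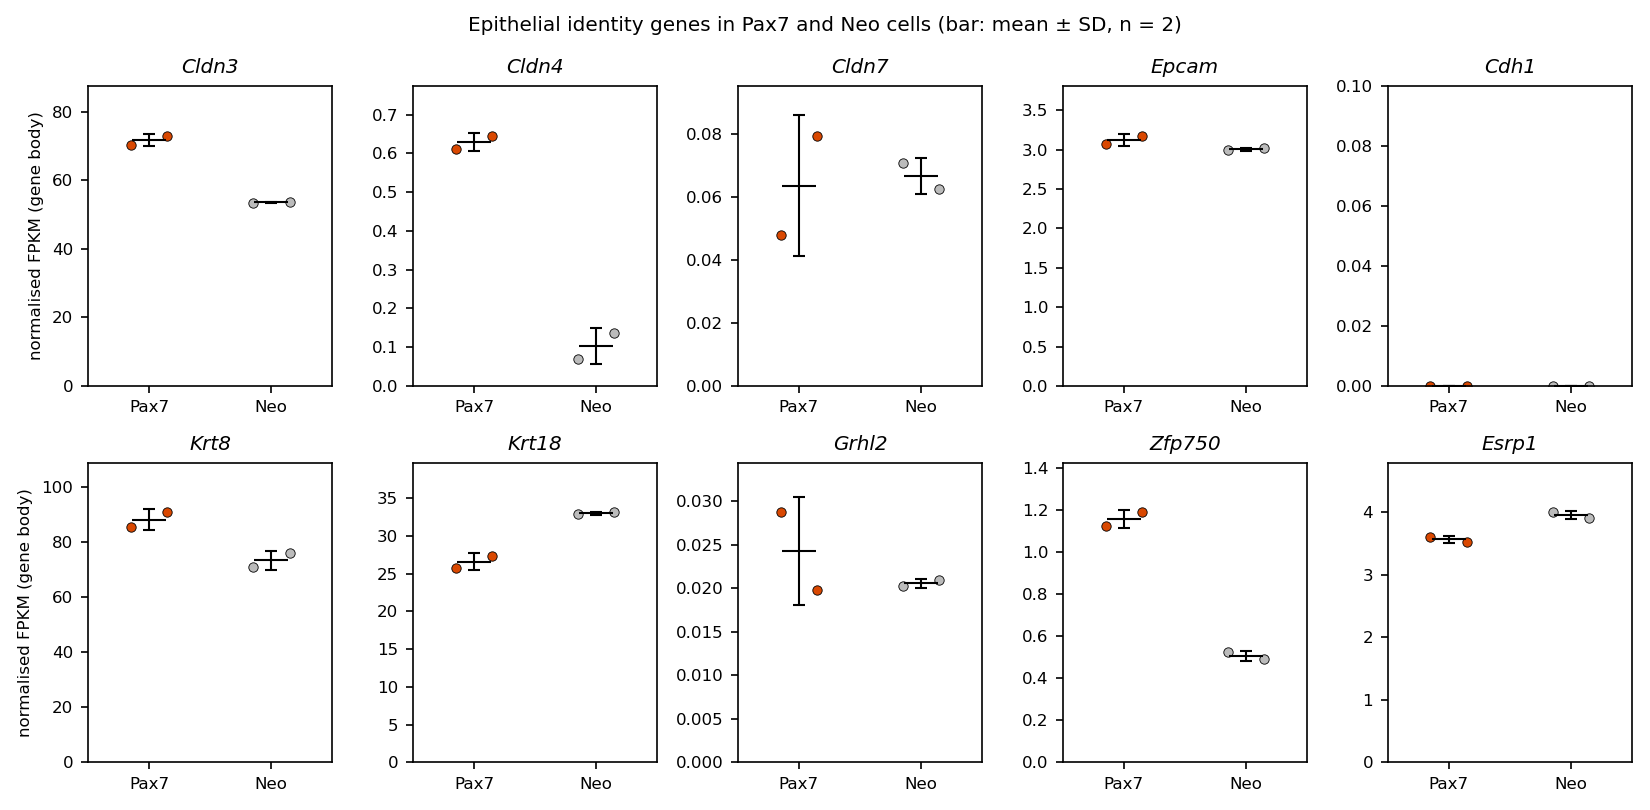
Normalised FPKM over gene bodies (y axis, from 0, a separate scale per gene) of the 10 genes in Pax7 and Neo libraries. Points are libraries and bars the mean ± SD (n = 2). Cldn4, Zfp750, Cldn3 and Krt8 stand higher in Pax7 cells, Krt18 and Esrp1 stand lower, and Cdh1 is listed at 0 in all 4 libraries.

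The keratin pair parted in Pax7 cells. Krt8 read 85.6 and 90.9 FPKM in Pax7 cells, against 71.1 and 76.0 FPKM in Neo cells, a rise of log2 0.26 ± 0.05 (SE, adjusted p = 0.027 in limma). Krt18 read 25.8 and 27.4 FPKM in Pax7 cells, against 32.8 and 33.1 FPKM in Neo cells, a log2 fold change of -0.31 ± 0.04 (adjusted p = 0.0105 in limma). The Krt8 to Krt18 ratio of FPKM was 3.32 in both Pax7 libraries, against 2.17 and 2.30 in Neo libraries. The call of Krt8 was lost without Pax7 replicate 1, Pax7 replicate 2 or Neo replicate 1, with an adjusted p of 0.0618 to 0.114, while that of Krt18 held without any 1 library. Leaving out a library here leaves its group with 1, which is then assumed to vary like the other group.

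**Figure D3:**
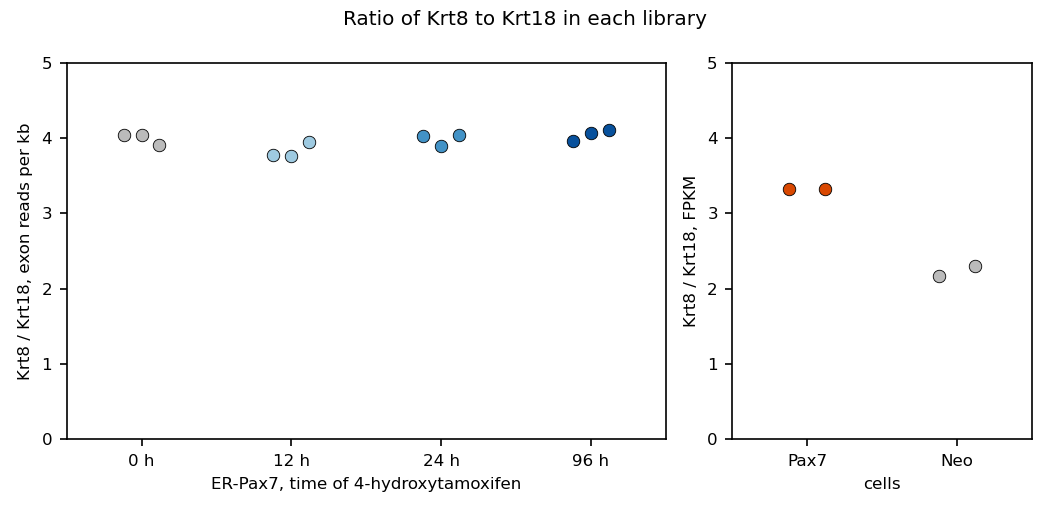
Ratio of Krt8 to Krt18 (y axis, from 0) in each library, per kb of exon in ER-Pax7 cells by time (left) and in FPKM over gene bodies in Pax7 and Neo cells (right). Each point is 1 library. The ratio stays between 3.76 and 4.11 at all times with ER-Pax7 and is 3.32 in Pax7 cells, above 2.17 and 2.30 in Neo cells.

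Esrp1 read 3.60 and 3.53 FPKM in Pax7 cells, against 4.00 and 3.92 FPKM in Neo cells. Its log2 fold change of -0.15 ± 0.03 (SE, adjusted p = 0.0331 in limma) lost its call without any 1 of the 4 libraries (adjusted p of 0.0851 to 0.127). Epcam read 3.07 and 3.17 FPKM in Pax7 cells, against 2.99 and 3.02 FPKM in Neo cells (log2 0.05 ± 0.03, adjusted p = 0.278 in limma). Grhl2 read 0.03 and 0.02 FPKM in Pax7 cells, against 0.02 and 0.02 FPKM in Neo cells, over a body of 130532 bases. These values amount to an estimated 184 and 141 reads in Pax7 libraries, against 162 and 152 in Neo libraries, each uncertain by 30.7 to 40.4 reads from rounding. Grhl2 was under the filter on low values. With no filter its log2 fold change was 0.04 (adjusted p = 0.571 in limma), so a fall like that with ligand was not seen, on a scale where the pseudocount of 0.1 exceeds the values. In the authors' deposited table none of the 10 genes had an FDR under 0.05 for Pax7 against Neo, among 24 genes that did.

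**Figure D4:**
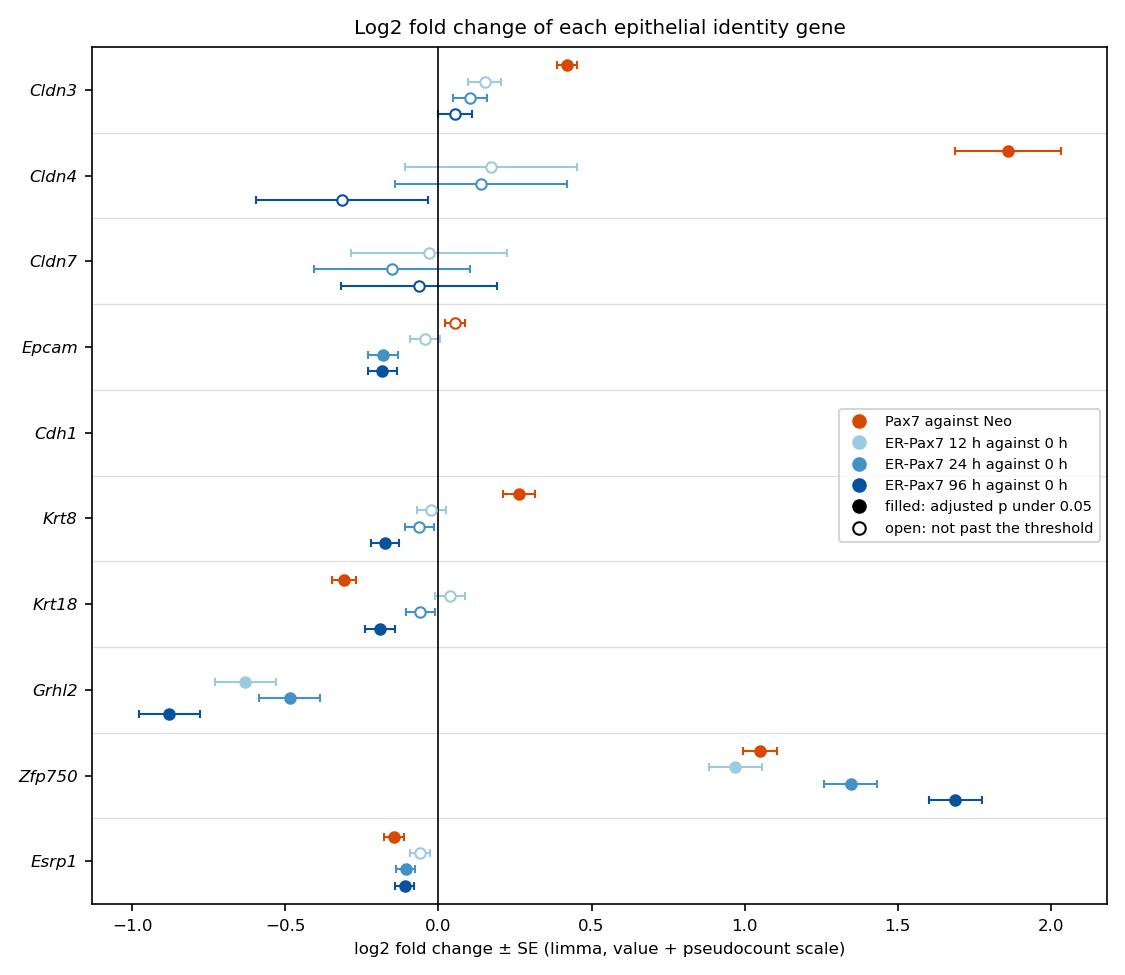
Log2 fold change ± SE from limma (x axis) of each gene (rows) for Pax7 against Neo and for ER-Pax7 at 12, 24 and 96 h against 0 h, filled where the adjusted p was under 0.05. Zfp750 is to the right of 0 in all 4 comparisons and Grhl2 to the left in the 3 where it was tested, while Krt8 lies at 0.26 for Pax7 against Neo and at -0.17 for 96 h against 0 h; Cdh1 was not tested.

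Other genes of the same structures were counted from 7 lists. Of 23 tested tight junction genes beside the members, none was called at 12 h, 3 were lower at 24 h, and 4 were higher and 6 lower at 96 h. The shares at 24 and 96 h were 13.0% and 43.5%, against 13.6% and 33.8% of all genes. At 12 h 6.53% of all genes were called. The receptor proteins Lsr, which recruits tricellulin to junctions where 3 cells meet, and F11r (JAM-A) fell at 96 h, with log2 fold changes of -0.26 ± 0.04 and -0.27 ± 0.04 (SE, adjusted p in limma of 7.61e-06 and 1.60e-05). Cldn23 fell (log2 -0.44 ± 0.07) and the scaffold gene Cgnl1 rose (log2 0.71 ± 0.14) (adjusted p of 7.89e-05 and 0.000446 in limma). In Pax7 cells 4 of 20 tested tight junction genes were higher than in Neo cells and 7 lower, against 18.1% higher and 18.5% lower over all genes, F11r among the lower with log2 -0.26 ± 0.04 (adjusted p = 0.0136 in limma).

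Adherens junction genes other than Cdh1 were 1 higher and 4 lower of 14 tested at 96 h, and 4 higher and 3 lower of 12 in Pax7 cells. These shares were 35.7% at 96 h and 58.3% in Pax7 cells, against 33.8% and 36.6% of all genes. The nectin gene Pvrl3 fell in both, with a log2 fold change of -0.47 ± 0.05 at 96 h and -0.63 ± 0.06 in Pax7 cells (SE, adjusted p in limma of 9.59e-07 and 0.00586). Ctnnb1 (beta-catenin) rose by log2 0.29 ± 0.04 in Pax7 cells (adjusted p = 0.0142 in limma). Of 9 tested desmosome genes 4 were lower and 1 higher at 96 h, 55.6% against 33.8% of all genes. Ppl (periplakin) was at log2 -0.41 ± 0.05 and Pkp2 (plakophilin 2) at log2 0.27 ± 0.06. At 12 h Perp and Pkp4 were lower and Pkp2 higher, 33.3% of the 9 against 6.53% of all genes. In Pax7 cells 3 of 8 were lower (37.5%, against 18.5% lower and 36.6% called over all genes), Ppl, Dsp (desmoplakin) and Perp, and none higher.

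Among 9 other keratins tested, 4 were lower and none higher at 96 h, Krt7, Krt23, Krt17 and Krt14. These made 44.4% of those tested, against 33.8% called and 17.3% lower over all genes. At 12 h 33.3% of the 9 were called, Krt14 and Krt17 lower and Krt80 higher, against 6.53% of all genes. Krt7, a simple epithelial type II keratin, averaged 3223 ± 118 normalised scaled exon reads at 96 h, against 4058 ± 100 at 0 h (SD, n = 3 each). Of 6 keratins tested in Pax7 cells 50% were called, against 36.6% of all genes, with Krt7 and Krt17 lower. Krt23 averaged 11.5 ± 0.66 FPKM in Pax7 cells against 5.26 ± 0.10 FPKM in Neo cells (SD, n = 2 each), a rise of log2 1.11 ± 0.05 (SE, adjusted p = 0.00213 in limma). Of 15 other transcription and splicing regulators of epithelia 6 were lower and 1 higher at 96 h, 46.7% against 33.8% of all genes. Rbm47, an RNA-binding protein, and Esrp2, the paralog of Esrp1, fell with log2 fold changes of -0.96 ± 0.13 and -0.39 ± 0.08 (SE, adjusted p in limma of 5.52e-06 and 0.000464). In Pax7 cells 1 of 9 tested regulators was higher and 1 lower, 22.2% against 36.6% of all genes.

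Of 13 tested genes for epithelial membrane proteases and adaptors 3 were higher and 3 lower at 96 h, with the protease gene Tmprss2 at log2 -1.07 ± 0.13 and Epn3 at log2 -1.04 ± 0.14 (SE). In Pax7 cells 7 of 11 were higher and none lower, against 18.1% higher and 18.5% lower over all genes, Prom2 by log2 0.84 ± 0.07 (adjusted p = 0.00546 in limma). Of 13 tested mesenchymal genes 1 was higher (Tgfb2) and 3 lower (Mmp14, Col1a1 and Zeb2) at 96 h, and in Pax7 cells 1 of 6 was lower, Twist1 at log2 -0.12 ± 0.03. Each of these 7 lists holds between 13 and 28 genes, and at 96 h the share called ran from 30.8% to 55.6% of tested genes, against 33.8% over all genes. For Pax7 against Neo it ran from 16.7% to 63.6%, against 36.6%. At 12 h it was 0% for tight junction, adherens junction and mesenchymal genes, 7.69% for proteases and adaptors and 20% for regulators. It was 33.3% for desmosome genes and for other keratins, against 6.53% over all genes. At 24 h it ran from 7.14% (adherens junction genes) to 44.4% (desmosome genes), with regulators at 40%, against 13.6% over all genes.

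**Figure D5:**
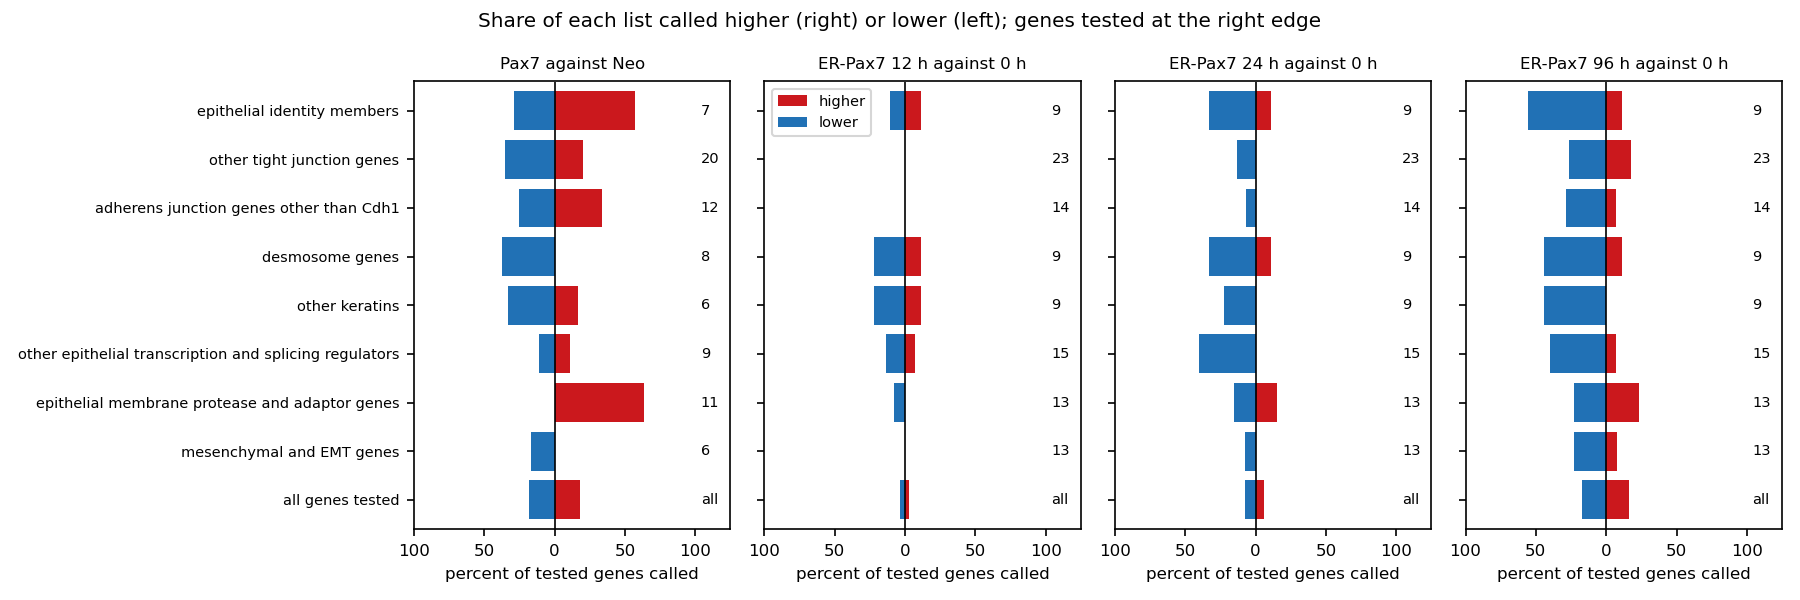
Percent of tested genes called higher (right of 0) or lower (left of 0) in limma, for the 10 epithelial identity genes, 7 lists of related genes and all genes tested (rows), in 4 comparisons (panels); numbers at the right edge are genes tested. At 96 h the member bars are 5 lower and 1 higher of 9, beside 17.3% and 16.5% over all genes.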

How the data were processed

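The RNA was ribosome-depleted total RNA read, per the labels' protocols, from both ends over 50 bp. The submitters' processing notes name TopHat, HOMER, edgeR and the build mm10 (GRCm38), with no versions. For ER-Pax7 cells the authors counted reads over exons without a strand option and scaled each library to a total of about 7213570, so the deposited signal is scaled reads (file headers and values). For Pax7 and Neo cells the authors deposited FPKM over whole gene bodies, rounded to 2 decimals and scaled to a total of about 120820. The authors' deposited log2 folds and p-value columns come from edgeR run through HOMER, per the file headers, and were used only where named.

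Each table was scaled by its TMM factors (edgeR 4.0.16) and tested on its own with limma 3.58.1 (trended empirical Bayes, R 4.3.3) on log2 values after adding a pseudocount of 1 (scaled reads) or 0.1 (FPKM). A fold change on this scale understates the change of low genes. Genes needed 1 scaled read in 3 libraries or 0.1 FPKM in 2. Printed means and SD use the scaled values. Tests were checked on simulated data. Low scaled values are whole multiples of 1 read (100% within 0.1), which gave reads for edgeR and DESeq2 1.42.0 as alternatives. On these reads edgeR called 994, 2043 and 5131 genes at 12, 24 and 96 h. FPKM depth was estimated from steps of short genes. Replicates of the ER-Pax7 groups differed by more than sampling noise, which was not assessed for Pax7 and Neo libraries.

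The members and lists were chosen with earlier results of these data known. The text names every member and, per list, called genes with the smallest adjusted p; 1 gene that this would name is counted in its list but not reported here. Alternatives were other scalings, filters, pseudocounts, models and tests and leaving out each library. Reads carry no molecular identifiers, so read numbers show counting error only. Without strand, overlapping genes cannot be told apart. Reads of Krt8 may be shared with a processed pseudogene. RefSeq promoter windows are GRCm38.p6.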

Additional observations from a re-analysis of the deposited data

Results flagged for a closer look

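Of 46 genes named here and tested in both tables, 8 had every Pax7 library on one side of every Neo library and every 96 h library of ER-Pax7 on the opposite side of every 0 h library. The difference between the 2 systems was not tested, since the tables were normalised separately and count different parts of genes (gene bodies and exons). By this description 73.8% of all genes tested did not overlap between Pax7 and Neo cells, and 45.9% did not overlap between 96 h and 0 h. The share of all genes on opposite sides in the 2 systems was not counted. Whether 8 of 46 is more than among all genes is therefore not known.

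Among the members these were Krt8, at log2 0.26 for Pax7 against Neo and -0.17 for 96 h against 0 h, and Epcam, at 0.054 and -0.18, the first of which was not called. Among related genes Krt23 stood at 1.11 for Pax7 against Neo and -0.24 for 96 h against 0 h. Krt14 stood at 0.32 and -0.81, Klf4 at 0.074 and -0.25, Marveld2 at 0.22 and -0.19, Spint1 at 0.22 and -0.25, and Ctnna1 at 0.19 and -0.15 in the same order. The values of Krt14 and Klf4 for Pax7 against Neo were not called.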

How the results depend on the processing

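Each member's log2 fold change was recomputed under other scalings, filters, pseudocounts, models and tests and with each library left out. Of 842 values, 796 kept their direction and side of the threshold, 19 lost a call, 5 gained one and 22 changed sign, all 22 without a call. Zfp750 and Grhl2 against 0 h kept their calls throughout. Without 1 library the genes called for Pax7 against Neo ran from 1957 to 2730, against 4906, and for 96 h against 24 h from 1260 (without 96 h replicate 2) to 2108, against 1921. Members called between 96 h and 24 h ran from 0 (without 96 h replicate 1; 1 without 24 h replicate 3) to 3, against 2. Signs changed without 1 library at 12 h for Krt8 (-0.070 to 0.023), Krt18 (-0.018 to 0.071), Cldn4 (-0.0012 to 0.47) and Cldn7 (-0.085 to 0.10), at 96 h for Cldn3 (-0.028 to 0.10) and Cldn7 (-0.12 to 0.085), and for 96 h against 24 h for Epcam (-0.043 to 0.049) and Esrp1 (-0.011 to 0.0047). With only the groups compared in the model, Epcam at 96 h against 24 h was at 0.0011. The cause was not tested. Cdh1, Cldn7 and Grhl2 in Pax7 and Neo cells are limited by depth and by rounding.

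The labels do not state that replicate numbers mark a batch, and they were not used to pair the samples. Deviations of same-numbered ER-Pax7 libraries correlated weakly, at -0.08 to 0.14 over 18 pairs, 1 of them over 0.1. With a replicate block more genes were called at 12 h (1246, against 992), 24 h (2538, against 2063) and 96 h (5755, against 5129). The same held for 96 h against 24 h (2515, against 1921), while fewer were called for Pax7 against Neo (3305, against 4906). The block called 4 members at 96 h against 24 h (1 higher, 3 lower), Krt8 and Krt18 among the lower (adjusted p = 0.0475 and 0.0358 in limma). It also called Cldn3 at 12 h (0.0196), but not Esrp1 for Pax7 against Neo (0.068).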
